A study of Mus musculus with 6 samples.

Results

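The small subunit processome is the large nucleolar assembly that folds, cleaves and modifies the 18S part of the pre-rRNA, and the 40S assembly factors carry the released particle through the nucleus to the cytoplasm. The processome forms on the nascent pre-rRNA in steps: the t-UTP (UTP-A) proteins bind the start of the transcript, UTP-B and the U3 small nucleolar ribonucleoprotein (snoRNP) follow, and the Mpp10 complex, Bms1 and RNA helicases join before the particle is remodelled. The subunits are encoded by RNA polymerase II genes that are expressed in growing cells, including proliferating fibroblasts. The 53 genes described here were listed by symbol and sorted into 13 subcomplexes or functional groups. 51 of them were found under that symbol among the 18001 genes measured. Utp4 and Utp11 were not found under these symbols and are given separately under the older symbols of the table.

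Expression was measured in NIH/3T3, an immortalized line of mouse fibroblasts, after transfection of pooled siRNAs against Aldoa, which encodes the glycolytic enzyme aldolase A (siAldoa), or of non-targeting control siRNAs (siCtrl). Cells were harvested 48 h later, and poly(A) RNA was sequenced in 3 replicates per group. No other genotype, drug or time point was compared. All 6 libraries come from 1 cell line grown in the same medium, and ERCC spike-in RNA was added to the lysis buffer for replicate 1 and after RNA extraction for replicates 2 and 3. The comparison asks how depletion of Aldoa, found by the authors in a screen with reporters of ribosomal biogenesis genes, changes the expression of these genes.

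Values are CPM, the reads of a gene relative to the scaled size of its library. CPM is a relative measure, and in a bulk sample fewer cells that express a gene cannot be told apart from less RNA per cell. A gene was called lower or higher in siAldoa with a Benjamini-Hochberg adjusted p under 0.05 over all 18001 genes in limma on log2(CPM + 1), two-sided. Fold changes are on this scale and are given as log2 with the standard error (SE).

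Aldoa was 522, 536 and 545 CPM in siCtrl replicates 1, 2 and 3 and 62.9, 69.2 and 72.0 CPM in siAldoa replicates 1, 2 and 3, which is 12.7% of the control (log2 fold change -2.96, SE 0.0519, limma adjusted p = 1.3e-21). All 3 siAldoa libraries were thus depleted of the targeted mRNA. Libraries held 3692341 to 3771129 reads, and a member had 49 to 973 reads in a library, with 7 members under 100 reads in at least 1. Replicates 1 and 2 of a group differed little more than counting noise, with a chi-square per degree of freedom of 1.12 in siCtrl and 1.11 in siAldoa, while pairs that include replicate 3 gave 2.07 to 3.24. The study describes all 3 as biological replicates, and p-values measure only the spread between these libraries, which may be partly technical. Of 10 fibroblast markers 9 were in the table, 3 of them lower and 4 higher in siAldoa, and their summed level was 15178 to 15693 CPM in siCtrl and 12990 to 13654 CPM in siAldoa. All 6 macrophage markers were in the table, 2 of them higher (Csf1r and Cd14) and none lower, and they summed to 14.2 to 23.3 CPM in siCtrl and 28.9 to 32.1 CPM in siAldoa. Their defining marker Ptprc was 1.54 ± 1.30 CPM in siCtrl and 1.24 ± 0.152 CPM in siAldoa (SD, n = 3), and Itgam was listed at 0 in 1 library of each group. Of 6 epithelial and endothelial markers 5 were in the table, 2 of them lower (Cdh1, and Krt8 with overlapping groups and a limma adjusted p of 0.045, or 0.097 with the replicate block), and they summed to 11.2 to 14.5 CPM in siCtrl and 3.93 to 6.21 CPM in siAldoa, with Krt18 at 0 in all siAldoa libraries. The part of these marker differences in the results below was not tested.

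The promoters of Wdr43 and Rrp9, the genes with the largest decreases among those called, and of Imp4, the gene with the largest increase, are shown so that the members that moved furthest in either direction can be compared. They are RefSeq sequences of GRCm38.p6, from 150 bases before to 30 bases after the start annotated in RefSeq. The windows are chr17:71616065-71616244, chr9:106477159-106477338 and chr1:34439679-34439858, all on the plus strand. The GENCODE spans given below begin earlier for Wdr43 (71615895) and Rrp9 (106475963), so these windows lie inside the GENCODE genes. Which start is used in these cells was not tested. Capitals mark an E-box (CACGTG) in Wdr43 and in Imp4 and, in Imp4, a YY1 motif (AAGATGGC) on the opposite strand. The Rrp9 window has none of the motifs searched.
Wdr43: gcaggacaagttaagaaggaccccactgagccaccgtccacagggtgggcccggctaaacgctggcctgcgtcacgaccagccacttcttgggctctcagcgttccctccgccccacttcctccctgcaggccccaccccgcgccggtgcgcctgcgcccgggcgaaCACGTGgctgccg
Rrp9: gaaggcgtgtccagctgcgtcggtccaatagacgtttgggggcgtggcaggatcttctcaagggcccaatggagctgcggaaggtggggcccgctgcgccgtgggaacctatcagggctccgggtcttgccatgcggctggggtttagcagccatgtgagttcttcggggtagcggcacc
Imp4: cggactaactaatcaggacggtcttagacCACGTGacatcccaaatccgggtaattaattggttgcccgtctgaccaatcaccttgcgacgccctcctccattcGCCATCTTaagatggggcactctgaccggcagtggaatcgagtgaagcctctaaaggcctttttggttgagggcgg

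Of the 51 genes, 17 were lower in siAldoa (33.3%) and 2 were higher (3.92%), beside 10.0% lower and 10.4% higher among all genes. All genes include 1834 with fewer than 12 reads in total, far below the reads of these members. With a filter on low values (mean over 1.79 CPM, the lower quartile), 21 of the 51 genes were lower (41.2%) and 2 higher. Of the 13500 genes kept, 14.4% were lower and 14.7% higher. This cutoff was still far below the CPM of these members. The 17 genes called lower in the main test were at 66.7% to 90.4% of their siCtrl mean. The median log2 fold change was -0.14, against -0.00234 over all genes, and 42 fold changes were negative and 9 positive. Among the 32 genes that did not pass the test, 25 fold changes were negative and 7 positive. The 3 siAldoa libraries lay below all 3 siCtrl libraries for 24 genes (47.1%) and above them for 2 (3.92%), beside 17.1% and 16.7% of all genes. With 3 libraries per group an exact permutation test of a single gene cannot go below p = 0.1, and it reached that value for these genes. The summed level of the 51 genes was 4304 to 4357 CPM in siCtrl and 3808 to 3944 CPM in siAldoa, 89.4% of the control.

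The median was negative in each pair of same-numbered libraries. The median log2 difference between siAldoa and siCtrl was -0.14 in replicate 1, -0.18 in replicate 2 and -0.20 in replicate 3, with 36, 41 and 40 of the 51 genes negative, while the median over all genes was -0.00458, -0.00714 and -0.00516. The labels give these numbers, which were not taken to pair the samples, and any part of the spike-in handling was not tested. The number of calls was less stable: without replicate 1 of both groups limma called 5 of the genes lower, without replicate 2, 6, and without replicate 3, 4, beside 3.84%, 3.54% and 2.89% of all genes.

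**Figure D1:**
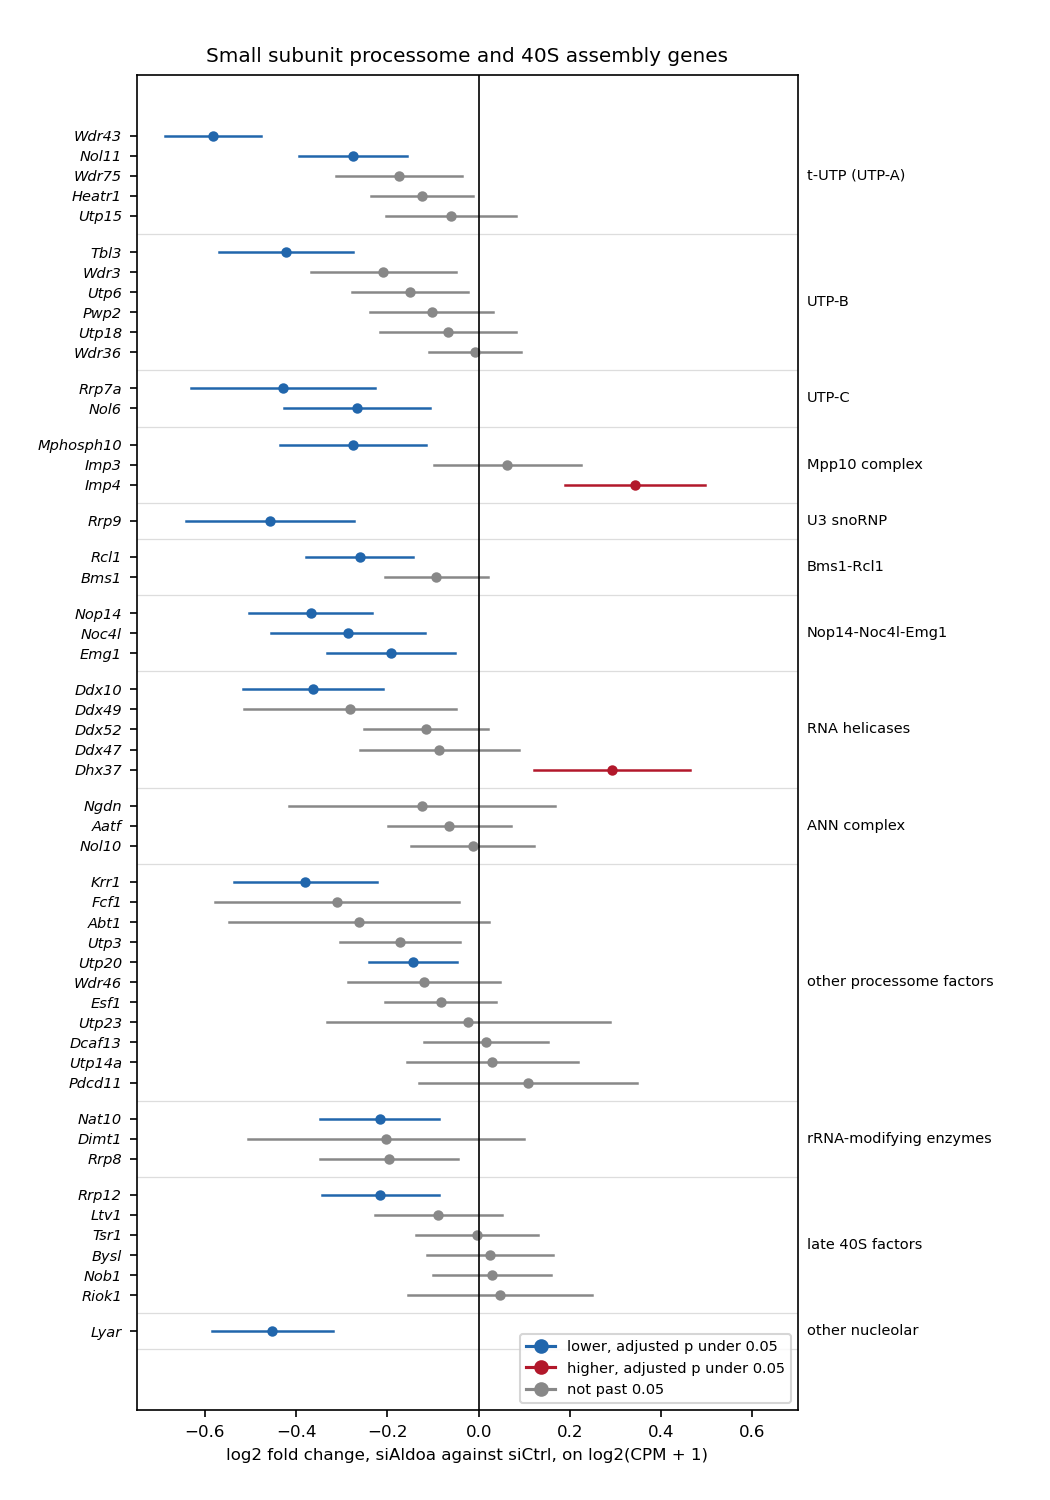
Log2 fold change (x axis, siAldoa against siCtrl on log2(CPM + 1), limma) of the 51 genes, ordered by subcomplex (right labels), with lines for the 95% confidence interval and colour for the call. Most points lie left of 0, 17 genes are called lower, and Imp4 and Dhx37 are called higher.

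The t-UTP proteins join pre-rRNA transcription by RNA polymerase I to processing. Of the 5 genes found 2 were lower and none was higher, beside 10.0% lower and 10.4% higher of all genes. Wdr43, a WD-repeat subunit on chromosome 17 (71615895 to 71659031, plus strand, GRCm38), was 244, 256 and 257 CPM in siCtrl and 179, 169 and 157 CPM in siAldoa. Its siAldoa libraries were all far below the siCtrl libraries, at 66.7% of the control, the lowest level of the 51 genes (log2 fold change -0.58, SE 0.0507, limma adjusted p = 1.0e-08). Nol11, a t-UTP protein on chromosome 11 (107166663 to 107189381, minus strand), was 118, 124 and 117 CPM in siCtrl and 97.2, 103 and 96.1 CPM in siAldoa. The groups did not overlap and siAldoa was at 82.5% (log2 fold change -0.28, SE 0.0575, limma adjusted p = 0.0011). Between same-numbered libraries, which were not taken as pairs, the log2 differences were -0.28, -0.27 and -0.28. Nol11 shares 437 exonic bases with Gm11715 on the opposite strand, which was 1.62 ± 0.242 CPM in siCtrl and 1.51 ± 0.151 CPM in siAldoa (SD, n = 3). Wdr75 (88.7% of siCtrl, limma adjusted p = 0.070), Heatr1, a large HEAT-repeat protein (91.7%, adjusted p = 0.12), and Utp15 (95.7%, adjusted p = 0.61) did not pass the test, although the siAldoa libraries of Heatr1 all lay below siCtrl. Utp4, found under its older symbol Cirh1a, was 153, 145 and 135 CPM in siCtrl and 141, 142 and 143 CPM in siAldoa, within the range of the controls (limma adjusted p = 0.82).

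UTP-B is a complex of 6 proteins that chaperones the 5′ end of the pre-rRNA and the U3 snoRNA. Of its 6 genes, 1 was lower (16.7%, beside 10.0% of all genes). Tbl3, a WD-repeat subunit on chromosome 17 (24697949 to 24707660, minus strand), was 84.1, 79.9 and 88.6 CPM in siCtrl and 59.6, 67.1 and 61.0 CPM in siAldoa. No siAldoa library reached the lowest siCtrl library, and the mean was 74.3% of the control (log2 fold change -0.42, SE 0.0708, limma adjusted p = 9.8e-05). Tbl3 shares 2122 exonic bases with Noxo1 on the opposite strand, which was itself at 0.268 ± 0.265 CPM in siCtrl and 0.536 ± 0.470 CPM in siAldoa (SD, n = 3). The other 5 genes had negative fold changes that did not pass, from Wdr3 at 86.2% (adjusted p = 0.056), Utp6 (log2 fold change -0.15, adjusted p = 0.089), Pwp2 at 92.9% (adjusted p = 0.31) and Utp18 at 95.2% (adjusted p = 0.59) to Wdr36 at 99.5% of siCtrl (limma adjusted p = 0.95). The siAldoa libraries of Wdr3 and Utp6 did not overlap with siCtrl, and for Wdr36 the 95% confidence interval of the log2 fold change was -0.11 to 0.09.

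Both UTP-C genes were lower, beside 10.0% of all genes. Rrp7a on chromosome 15 (83113433 to 83122801, minus strand) was 49.0, 47.3 and 48.2 CPM in siCtrl and 37.5, 30.2 and 39.5 CPM in siAldoa, with siAldoa replicate 2 the lowest (74.2% of siCtrl, log2 fold change -0.43, SE 0.0972, limma adjusted p = 0.0023). Nol6, its partner on chromosome 4 (41114427 to 41124455, minus strand), was 89.3, 84.3 and 93.1 CPM in siCtrl and 83.1, 74.0 and 64.9 CPM in siAldoa. The groups did not overlap, although the highest siAldoa library was just under the lowest siCtrl library, and siAldoa was at 83.3% (log2 fold change -0.27, SE 0.0774, limma adjusted p = 0.015).

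Of the 3 genes of the Mpp10 complex 1 was called lower and 1 higher (33.3% each), beside 10.0% lower and 10.4% higher of all genes. Mphosph10, the scaffold protein, lies on chromosome 7 (64376527 to 64392268, minus strand) and was 71.5, 68.7 and 65.1 CPM in siCtrl and 60.7, 51.3 and 57.3 CPM in siAldoa. Its siAldoa libraries were all below siCtrl, at 82.5% (log2 fold change -0.27, SE 0.0772, limma adjusted p = 0.013). Imp4, which helps the U3 snoRNA to pair with the pre-rRNA, lies on chromosome 1 (34439851 to 34449356, plus strand) and was 49.9, 51.4 and 50.8 CPM in siCtrl and 66.1, 61.2 and 66.5 CPM in siAldoa. All siAldoa libraries were above siCtrl, at 127% of the control (log2 fold change 0.34, SE 0.074, limma adjusted p = 0.0015). Imp3, the remaining subunit, was 51.2, 50.6 and 55.0 CPM in siCtrl and 54.8, 51.8 and 57.3 CPM in siAldoa, and the groups overlapped (log2 fold change 0.06, 95% confidence interval -0.10 to 0.22, limma adjusted p = 0.65). Imp3 shares 608 nearly identical bases with 4933427G23Rik, so its reads could be split between both genes.

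**Figure D2:**
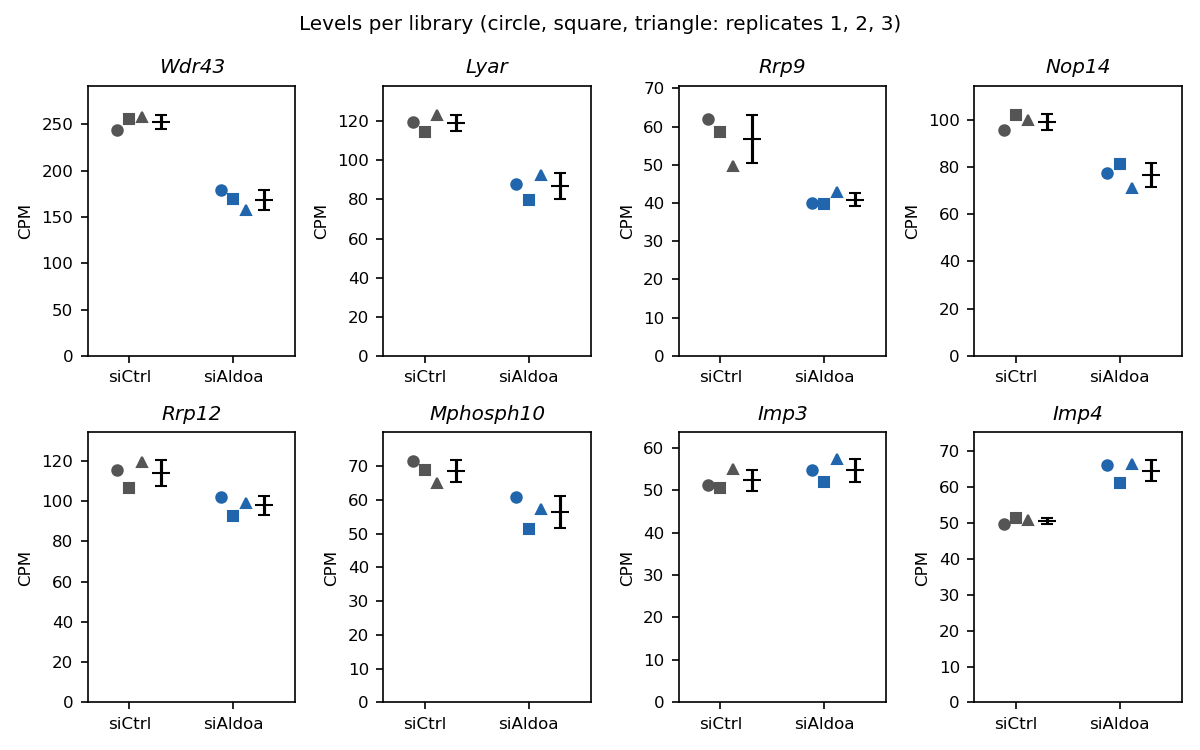
CPM (y axis, from 0) of 8 genes in each library of siCtrl (grey) and siAldoa (blue), with bars for the mean ± SD of 3 replicates. Wdr43, Lyar, Rrp9, Nop14, Rrp12 and Mphosph10 are lower in all 3 siAldoa libraries, Imp3 overlaps between the groups, and Imp4 is higher in all 3.

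Rrp9, the U3-specific protein of the U3 snoRNP, was 61.9, 58.5 and 49.7 CPM in siCtrl and 39.9, 39.8 and 42.9 CPM in siAldoa. The siCtrl libraries were spread more widely than the siAldoa libraries but none overlapped, and siAldoa was at 72.1% (log2 fold change -0.46, SE 0.0886, limma adjusted p = 0.00051). The gene lies on chromosome 9 (106475963 to 106485424, plus strand) and shares 20 exonic bases with Parp3 on the opposite strand, which was higher in siAldoa (59.9 ± 5.02 CPM against 45.4 ± 4.02 CPM, SD, n = 3). Rcl1, the partner of the GTPase Bms1, lies on chromosome 19 (29101375 to 29143929, plus strand) and was 121, 118 and 115 CPM in siCtrl and 97.7, 99.4 and 96.9 CPM in siAldoa. Both groups were tight and did not overlap, with siAldoa at 83.3% (log2 fold change -0.26, SE 0.0564, limma adjusted p = 0.0015). Bms1 itself was at 93.8% of siCtrl with overlapping groups (limma adjusted p = 0.26).

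Nop14, Noc4l and Emg1 were all lower, 3 of 3 genes, beside 10.0% of all genes. Nop14 and Noc4l bind each other in the processome, and Emg1 is the methyltransferase that modifies a pseudouridine of the 18S rRNA. Nop14 on chromosome 5 (34638536 to 34660148, minus strand) was 95.6, 102 and 99.7 CPM in siCtrl and 77.5, 81.2 and 71.2 CPM in siAldoa. These libraries fell into separate ranges, with siAldoa at 77.3% (log2 fold change -0.37, SE 0.0655, limma adjusted p = 0.00020). Noc4l was at 81.5% of siCtrl (log2 fold change -0.29, SE 0.0812, limma adjusted p = 0.013). Emg1, which had the smallest change of the 3, lies on chromosome 6 (124704085 to 124712178, minus strand) and was 86.8, 82.1 and 82.8 CPM in siCtrl and 78.0, 68.2 and 74.1 CPM in siAldoa. Its siAldoa libraries were all below siCtrl at 87.5% (log2 fold change -0.19, SE 0.068, limma adjusted p = 0.048), and with the replicate number as a block the adjusted p was 0.060. Emg1 shares 334 exonic bases with Lpcat3 on the opposite strand, which was 24.1 ± 0.933 CPM in siCtrl and 22.3 ± 2.54 CPM in siAldoa (SD, n = 3).

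The RNA helicases were again split. Ddx10, a DEAD-box helicase on chromosome 9 (53098635 to 53248053, minus strand), was 83.0, 87.5 and 77.8 CPM in siCtrl and 68.3, 58.3 and 66.0 CPM in siAldoa. All siAldoa libraries were lower, at 77.5% (log2 fold change -0.36, SE 0.0739, limma adjusted p = 0.00082). Dhx37, the DEAH-box helicase that releases U3 from the pre-rRNA, lies on chromosome 5 (125413858 to 125434121, minus strand) and was 58.1, 71.1 and 71.2 CPM in siCtrl and 88.2, 73.8 and 83.5 CPM in siAldoa. The groups did not overlap and siAldoa was at 123% (log2 fold change 0.29, SE 0.0826, limma adjusted p = 0.013), but replicate 2 differed by 0.05 on the log2 scale against 0.60 in replicate 1 and 0.23 in replicate 3, and with the replicate block the adjusted p was 0.051. Ddx49 was at 81.3% of siCtrl without overlap of the groups (limma adjusted p = 0.081), and Ddx52 (92.2%, adjusted p = 0.25) and Ddx47 (94.0%, adjusted p = 0.54) overlapped. Of the ANN complex, named after Aatf, Ngdn and Nol10, none was called and all 3 overlapped, at 95.7%, 92.4% and 99.0% of siCtrl (limma adjusted p = 0.56, 0.61 and 0.92). Ngdn had as few as 59 reads in a library, and its 95% confidence interval ran from -0.41 to 0.17.

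Among 11 other processome factors 2 were lower (18.2%, beside 10.0% of all genes) and none higher. Krr1, an RNA-binding KH domain protein on chromosome 10 (111972664 to 111988432, plus strand), was 61.6, 67.3 and 63.0 CPM in siCtrl and 49.1, 50.5 and 47.1 CPM in siAldoa. The 2 ranges were well apart, with siAldoa at 76.5% (log2 fold change -0.38, SE 0.0755, limma adjusted p = 0.00066). Krr1 shares 352 exonic bases with Glipr1 on the opposite strand, and Glipr1 was higher in siAldoa (81.4 ± 7.49 CPM against 53.6 ± 1.71 CPM, SD, n = 3). Krr1 also has 340 nearly identical bases with Gm11896, which was 6.30 ± 2.39 CPM in siCtrl and 4.89 ± 1.92 CPM in siAldoa. Utp20, a very large scaffold protein of chromosome 10 (88746607 to 88826804, minus strand), was 191, 196 and 188 CPM in siCtrl and 172, 175 and 172 CPM in siAldoa. Its change to 90.4% was the smallest among the genes called (log2 fold change -0.14, SE 0.0467, limma adjusted p = 0.029). Between same-numbered libraries, which were not taken as pairs, the log2 differences were -0.14, -0.16 and -0.13. Utp11, found under the older symbol Utp11l, was 96.1, 98.5 and 90.2 CPM in siCtrl and 67.5, 74.6 and 74.1 CPM in siAldoa. It was at 75.9% of siCtrl (limma adjusted p = 0.00011) and is not counted among the 17. Reads of Utp11 could be shared with near-identical sequences of other genes, with matches of up to 216 bases.

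The other 9 of these factors did not pass the test. Utp3 was at 88.8% (limma adjusted p = 0.059) and Fcf1, a PIN domain protein with 59 reads or more, at 79.8% (adjusted p = 0.099), both without overlap of the groups. Overlapping groups were found for Abt1 (82.8%, adjusted p = 0.21), Wdr46 (92.1%, adjusted p = 0.34), Esf1 (94.3%, adjusted p = 0.37), Utp23 (97.5%, adjusted p = 0.95), Dcaf13 (101%, adjusted p = 0.90), Utp14a, which activates Dhx37 (102%, adjusted p = 0.87), and Pdcd11, which acts in the assembly of both subunits (108%, adjusted p = 0.58), all from limma. Utp23 and Pdcd11 had as few as 49 and 97 reads, and the interval of Pdcd11 was -0.13 to 0.35. Reads of Utp23, Dcaf13 and Fcf1 could be shared with near-identical sequences of other genes.

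Nat10, the acetyltransferase that modifies cytidines of the 18S rRNA, was called lower, as was Emg1 above. Nat10 lies on chromosome 2 (103721256 to 103761270, minus strand) and was 112, 101 and 104 CPM in siCtrl and 96.3, 85.8 and 90.9 CPM in siAldoa. Its siAldoa libraries were all below siCtrl at 85.9% (log2 fold change -0.22, SE 0.0634, limma adjusted p = 0.016). The log2 differences between same-numbered libraries, which were not taken as pairs, were -0.22, -0.24 and -0.20. Rrp8, a methyltransferase of the large subunit rRNA, was at 87.1% without overlap (adjusted p = 0.062), and Dimt1, the dimethyltransferase of the 18S rRNA, at 85.5% with overlap (limma adjusted p = 0.38). Lyar, a nucleolar zinc finger protein on chromosome 5 (38220470 to 38234306, plus strand), was 119, 115 and 123 CPM in siCtrl and 88.0, 79.9 and 92.7 CPM in siAldoa. All siAldoa libraries were well below siCtrl, at 73.0% (log2 fold change -0.45, SE 0.0636, limma adjusted p = 1.1e-05). Lyar has 323 bases in common with Gm15659, which was 10.8 ± 1.34 CPM in siCtrl and 7.21 ± 2.18 CPM in siAldoa (SD, n = 3).

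**Figure D3:**
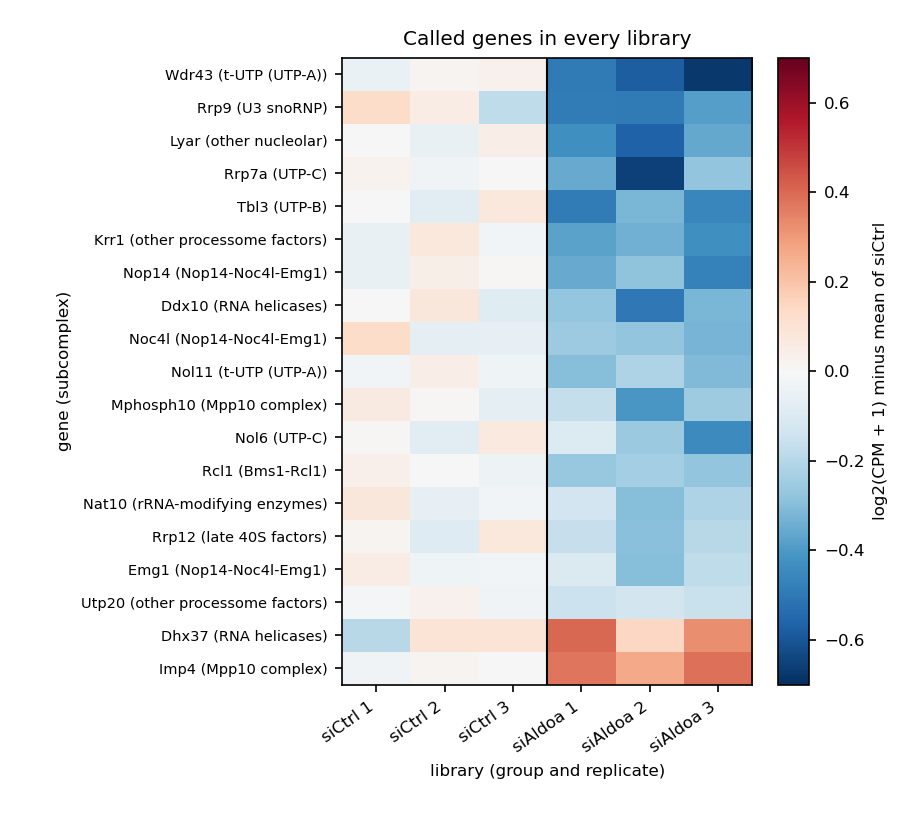
Log2(CPM + 1) minus the siCtrl mean (colour scale) of the 19 genes called, in rows with their subcomplex, in each of the 6 libraries (columns). The 17 genes called lower are below the siCtrl mean in every siAldoa library, and Imp4 and Dhx37 are above it.

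The late 40S factors were grouped for roles up to nuclear export and the final cytoplasmic cleavage, and some may join the particle earlier. Of these 6 genes, 1 was lower (16.7%, beside 10.0% of all genes). Rrp12, an export factor on chromosome 19 (41862851 to 41896173, minus strand), was 115, 107 and 120 CPM in siCtrl and 102, 92.7 and 99.2 CPM in siAldoa. No siAldoa library reached the siCtrl range, and the mean was 86.0% of the control (log2 fold change -0.22, SE 0.0617, limma adjusted p = 0.014). Bysl (102% of siCtrl, adjusted p = 0.85), Ltv1 (94.2%, adjusted p = 0.42), Tsr1 (99.5%, adjusted p = 0.99), Nob1, the endonuclease of the last 18S cleavage (102%, adjusted p = 0.81), and the kinase Riok1 (104%, adjusted p = 0.81) overlapped between the groups and did not pass in limma. The 95% confidence intervals of the log2 fold change were -0.11 to 0.16 for Bysl, -0.23 to 0.05 for Ltv1, -0.14 to 0.13 for Tsr1, -0.10 to 0.16 for Nob1 and -0.15 to 0.25 for Riok1. The median log2 fold change of the late 40S factors was 0.01, beside -0.17 for the t-UTP genes, -0.13 for UTP-B and 0.06 for the Mpp10 complex, and differences between the groups of genes were not tested.

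As a description, the ratio of reads within a library was taken between the gene with the lowest and the gene with the highest fold change of a subcomplex, a choice that fixes the direction of the ratio. Mphosph10 against Imp4 was 1.43, 1.34 and 1.28 in siCtrl and 0.918, 0.838 and 0.862 in siAldoa. Ddx10 against Dhx37 was 1.43, 1.23 and 1.09 in siCtrl and 0.774, 0.790 and 0.790 in siAldoa. For both pairs the reads of the first gene exceeded those of the second in siCtrl and were below them in siAldoa, in every library. Reads were not corrected for gene length, so they do not show which of these RNAs was more abundant. Wdr43 against Utp15 went from 3.28 ± 0.216 to 2.28 ± 0.102 and Rrp12 against Riok1 from 2.96 ± 0.167 to 2.47 ± 0.190 (SD, n = 3). The ratios of Rrp7a against Nol6, Nop14 against Emg1, Ngdn against Nol10 and Nat10 against Rrp8 overlapped between the groups.

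How far single libraries carried these calls was examined by leaving out each of the 6 in turn. Replicates 1 and 2 of a group are nearly alike, so a fit without either still holds a near copy of it. Of the 19 calls, 11 passed without any single library (Wdr43, Nol11, Tbl3, Rrp7a, Imp4, Rrp9, Rcl1, Nop14, Ddx10, Krr1 and Lyar), and the same 11 passed with DESeq2. The other 8 were lost in at least 1 case and kept their direction in all. Mphosph10 was lost without siAldoa replicate 2 or siCtrl replicates 1 or 2 (log2 fold change -0.33 to -0.21), Rrp12 without siAldoa replicate 2 or siCtrl replicates 1 or 3 (-0.26 to -0.18), and Noc4l without siAldoa replicate 3 or siCtrl replicate 1 (-0.32 to -0.22). Nol6 (-0.35 to -0.18) and Nat10 (-0.26 to -0.18) were lost without siAldoa replicates 2 or 3 or siCtrl replicates 1 or 3. Dhx37 was lost without siAldoa replicates 1 or 3 or siCtrl replicate 1 (0.20 to 0.36). Emg1 (-0.24 to -0.14) passed only without siAldoa replicate 1, and Utp20 (-0.16 to -0.13) passed only without siCtrl replicate 3. Only Wdr43 and Lyar also passed in every fit without both libraries of a replicate number, which leaves fewer libraries.

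Some of these genes overlap or resemble others. Exons of 17 of the 51 genes overlap those of another gene, in each case on the opposite strand, and 7 have near-identical sequence elsewhere. The use of strand in counting was not given in the sources used here, so reads of such pairs cannot be told apart with certainty. Among the 30 genes without either feature, 10 were lower and 2 higher, with a median log2 fold change of -0.12, beside 10.0% lower and 10.4% higher of all genes.

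Other genes of the pathway were counted in the same way. Of 28 other 40S assembly factors 24 were in the table, and 10 were lower (41.7%) and none higher, with a median log2 fold change of -0.18. Among all genes 10.0% were lower and 10.4% higher. The lowest of these other 40S factors were Nop56, a core protein of box C/D snoRNPs (68.5% of siCtrl, log2 fold change -0.54, limma adjusted p = 7.6e-09), Tcof1, a nucleolar factor of rRNA gene transcription (72.9%, -0.45, adjusted p = 7.2e-07), and Tsr2, an escort of a 40S ribosomal protein (76.1%, -0.38, adjusted p = 0.0025). Of 51 factors of 60S assembly 49 were in the table, and 26 were lower (53.1%) and none higher, with a median of -0.19. The 33 genes of 40S ribosomal proteins, the cargo of this machinery, had a median of 0.01, with Rps27l lower (83.3% of siCtrl, limma adjusted p = 0.0038) and, among those called higher, Rps4x (108%, adjusted p = 0.026, or 0.053 with the replicate block) and Rps21 (121%, adjusted p = 0.0059). The summed level of the 40S ribosomal protein genes was 9220 to 9563 CPM in siCtrl and 9345 to 9771 CPM in siAldoa, and reads of these genes may be shared with their processed pseudogenes. The lists were compared by counts only.

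**Figure D4:**
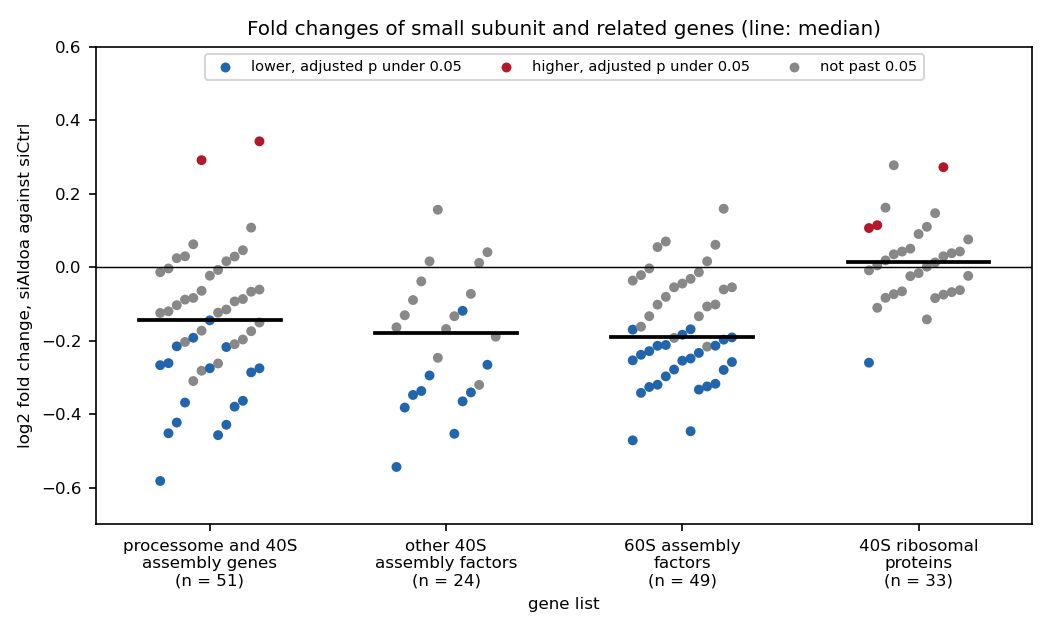
Log2 fold change (y axis, siAldoa against siCtrl) of each gene in 4 lists, with a line at the median and colour for the call. The 51 processome and 40S assembly genes (median -0.14), 24 other 40S factors (-0.18) and 49 factors of the 60S subunit (-0.19) lie mostly below 0, and the 33 ribosomal protein genes of the 40S subunit are centred at 0.01.

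RefSeq promoters, from 250 bases before to 50 bases after the start, were found for 43 of the 51 genes. The E-box CACGTG, which reads the same on both strands, was in 10 of them (23.3%), beside 11.0% of 11192 promoters of genes in the table and 8.09% of all 27025. It was in Wdr43, Nol11, Rrp7a, Utp20, Imp4, Aatf, Ltv1, Tsr1, Utp18 and Wdr46, that is in 4 of 14 genes called lower and 5 of 27 not called. The E-box of Wdr43 begins 17 bases after the RefSeq start and that of Imp4 121 bases before it, as in the sequences shown above. The ETS motif CCGGAAGT, on either strand, was in 13 promoters (30.2%), beside 8.22% of table genes and 4.31% of all. It was in 1 of 14 genes called lower (Emg1), in 11 of 27 not called and in Dhx37, called higher. Links between motifs and calls were not tested. The NRF1 motif GCATGCGC was in 3 promoters (6.98%, 5.41% of table genes), where its 2 strands can overlap, YY1 AAGATGGC in 2 (4.65%, 4.74%) and the TATA box TATAAA in 2 (4.65%, 9.71%). The E-box and ETS shares were above those of all promoters, and a match shows only that the letters are present.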

How the data were processed

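Poly(A) RNA-sequencing of NIH/3T3 cells (3 siCtrl and 3 siAldoa libraries) was analysed. The authors prepared directional libraries, aligned reads to mm10 with bowtie2 (version 2.2.7), subsampled them to equal numbers, counted them with GenomicAlignments and deposited CPM. The stated filter of 12 reads per gene was checked, and 1834 genes lay below it. Annotation release, use of strand and multiply mapped reads were not given in the sources used here. A deposited comparison with the authors' log2 fold changes and p-values was not used.

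Every CPM was a whole multiple of 1 read (100% within 0.01 read), so reads were recovered. These reads carry no molecular identifiers. The main test was limma (version 3.58.1, in R 4.3.3) with a mean-variance trend, fitted to log2(CPM + 1) of 18001 genes. edgeR (version 4.0.16) and DESeq2 (version 1.42.0) on the recovered reads, other scalings, filters and a pseudocount of 0.1, a replicate block and libraries left out were alternatives. The fits were tested on simulated data. Positions and overlaps come from GENCODE M21 (GRCm38), and near-identical transcripts (90% over 200 bases or more) from blastn (version 2.17.0). Promoters come from RefSeq.

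The members, subcomplexes, lists and motifs were chosen with earlier results of these data known. Values per library are given for the lowest and highest gene called in each subcomplex, for each gene called in t-UTP, UTP-B, the Mpp10 complex and late 40S factors, and for each gene called higher. Values of Utp4, Utp11, Imp3, single markers and overlapping genes were added after their values were seen. One result of the ribosomal protein list is not reported here.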

Additional observations from a re-analysis of the deposited data

How the results depend on the processing

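The members' median log2 fold change was negative under every alternative, from -0.17 to -0.12 with libraries or replicate numbers left out. The counts of calls depended on the setting. DESeq2 called 10 members lower and 1 higher (1117 and 1066 of all genes), and limma without the mean-variance trend 5 and 1 (616 and 824). edgeR's quasi-likelihood test called 18 and 2 (1866 and 1920). With libraries or replicate numbers left out, 4 to 18 members were lower and 0 to 2 higher, of 520 to 1371 and 494 to 1464 genes. The counts lower were 11 without siAldoa replicate 2 or siCtrl replicate 1, and 5, 6 and 4 without replicate 1, 2 or 3 of both groups. Among members without overlapping or near-identical genes, an alternative chosen after seeing the data, 10 of 30 were lower. The last count covers fewer genes and the counts before it fewer libraries, and otherwise the cause was not tested.

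Samples with the same number were compared for pairing. Their deviations from the group means correlated by 0.030, 0.014 and 0.13 over 10059 genes. Between replicates 1 and 2 of different groups the correlations were 0.074 and 0.038. Between replicate 3 and replicates 1 or 2 they were all negative, from -0.094 to -0.046. Replicates 1 and 2 of a group are nearly alike, so this comparison cannot tell their numbers apart. Whether replicate 3 of both groups shares a batch was not tested. The numbers were not taken to pair the samples in the main test. The fit with the replicate block called 16 members lower and 1 higher (1559 and 1611 of all genes).

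Of the genes named, signs changed for some that were not called. With total-read scaling Wdr36 was at 0.016, Nol10 at 0.0096 and Tsr1 at 0.020 (log2), and with quantile normalization Wdr36 at 0.034. With libraries left out, the range was -0.10 to 0.0075 for Utp15, -0.14 to 0.0056 for Utp18, -0.026 to 0.022 for Wdr36, -0.27 to 0.0024 for Ngdn, -0.048 to 0.029 for Nol10, -0.041 to 0.084 for Utp14a, -0.14 to 0.12 for Utp23, -0.035 to 0.057 for Dcaf13, -0.077 to 0.25 for Pdcd11, -0.032 to 0.090 for Bysl, -0.061 to 0.081 for Tsr1, -0.034 to 0.080 for Nob1, -0.070 to 0.13 for Riok1 and -0.079 to 0.025 for Utp4. At 49 to 973 reads per library, changes of a few percent were not detectable.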
